A study of Mus musculus with 3 samples.

Results

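The genes described here are 9 transcription factors of mast cell and myeloid progenitor identity, Gata1, Gata2, Mitf, Tal1, Spi1, Cebpa, Myb, Lmo2 and Runx1, together with Cd34, a surface protein of blood progenitors. They were chosen by name, and every probe set that the platform's gene table assigns to them was read, which gave 12 probe sets for these 10 genes among 22180 genes measured. Each of the 3 arrays holds 1 population sorted from the peritoneal cavity of naive female BALB/c mice of 10 to 11 weeks: progenitors of mast cells, mast cells that had matured, or type 2 innate lymphoid cells. All animals were of that one strain and untreated, with no transgene or deletion named, and cells of 5 mice were pooled before sorting. Each population was 100 sorted cells on 1 array, so values come without errors and differences without tests. Sorted mast cells of either kind were high in c-kit and carried FcεRI, the IgE receptor of high affinity. Integrin β7 was high and side scatter low on the progenitors, whereas the mature cells scattered more and carried less of the integrin. The innate lymphoid cells carried CD127 and CD25, lacked FcεRI and had little or no c-kit, and ST2 was required in all 3 gates. ST2 (Il1rl1) was not analysed here.

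Mast cells arise from blood progenitors that carry c-kit, and they finish maturing in tissues. GATA2, MITF and PU.1 (encoded by Spi1) are known from mutant mice as factors that mast cells need, while C/EBPα directs progenitors to other myeloid fates. TAL1 and LMO2 belong to a complex that GATA factors join on DNA. RUNX1 and MYB act early in blood formation, and CD34 is known in mice as a surface protein both of progenitors and of mast cells.

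The transcripts of 9 of the 10 genes read nearly the same in all 3 populations. Their log2 levels spanned at most 0.11 over the 3 arrays, which is 1.08-fold. Myb was the exception: 1 of its 2 probe sets read 3.57-fold lower in progenitors and 2.97-fold lower in innate lymphoid cells than in mature mast cells. No gene of the 10 reached 4-fold in any comparison. Over all genes, a difference of at least 4-fold was found for 0.947% between the mast cell populations, 1.1% between progenitors and innate lymphoid cells and 0.974% between mature mast cells and innate lymphoid cells. A difference of at least 2-fold was found for Myb alone, in 2 of the 3 comparisons. The share of all genes at 2-fold was 2.44% between progenitors and mature mast cells, 2.65% between progenitors and innate lymphoid cells and 2.6% between mature mast cells and innate lymphoid cells. Counts required the brighter level to lie above its array's median. With so few genes, 1 of 10 cannot be set apart from these shares.

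**Figure D1:**
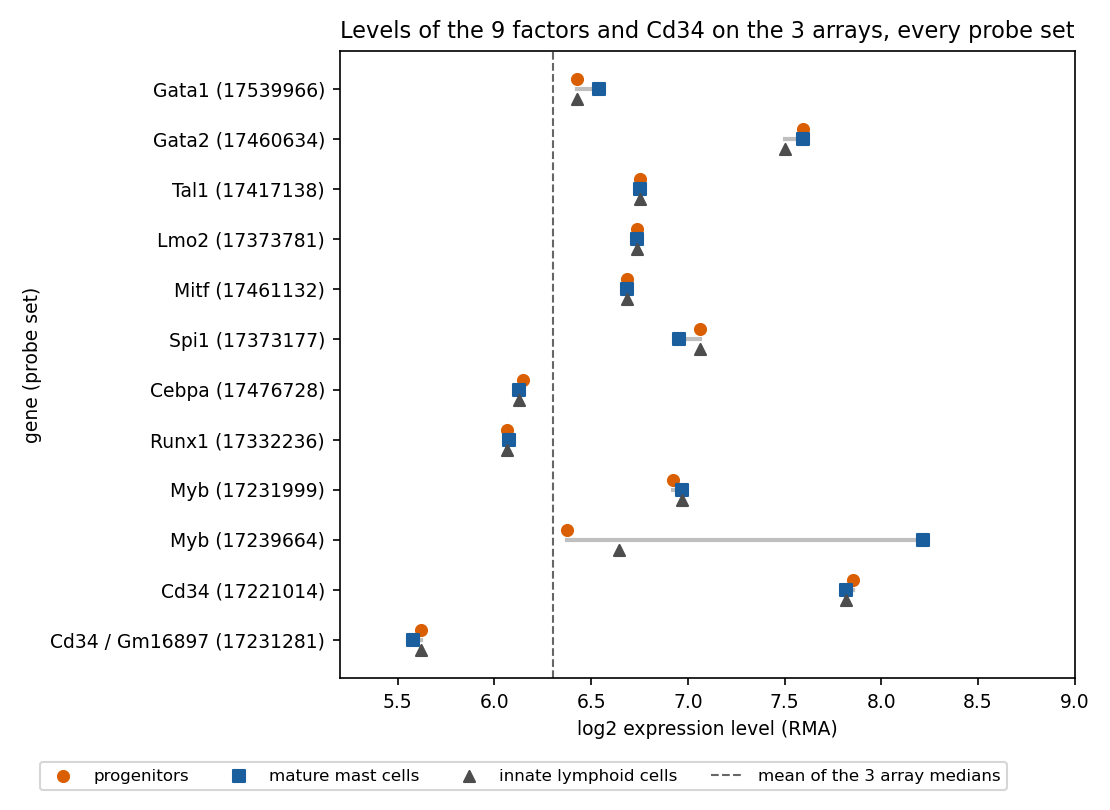
Log2 level of each of the 12 probe sets on the 3 arrays (orange circles, progenitors; blue squares, mature mast cells; grey triangles, innate lymphoid cells); symbols of a row are offset vertically and the grey bar joins its lowest and highest level. The dashed line is the mean of the 3 array medians over single-gene probe sets, and only the second Myb row, probe set 17239664, spreads beyond 0.11, from 6.38 to 8.21.

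Myb encodes a factor that progenitors need to divide and stay undifferentiated. By probe set 17239664 its log2 level was 6.38 in progenitors, 8.21 in the mature cells and 6.64 in the innate lymphoid cells. Mature mast cells were thus the high array, and the other arrays lay within 0.27 of each other. The progenitor level was close to its array's median of 6.32. In this bulk material, fewer cells with the transcript and less transcript per cell cannot be told apart. Whether the single progenitor array detected transcripts less well was not tested. Kit and Fcer1a, whose proteins were in the mast cell gates, also read lower there. Their differences for progenitors minus mature mast cells were -3.40 and -3.51, whereas that of Cpa3 was -0.54. Itgb7, whose protein was sorted as high on progenitors, differed by only -0.22. Between the mast cell populations, 214 of all genes (0.965%) were at least as far below in progenitors as Myb, with 1.93% at least 2-fold lower there. Between mature mast cells and innate lymphoid cells, 180 genes (0.812%) were at least as far above in mature cells, with 1.34% at least 2-fold higher.

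The other Myb probe set, 17231999, did not repeat this pattern. It was at 6.92 in progenitors and at 6.97 in both mature mast cells and innate lymphoid cells. With the probe sets averaged, Myb gave a difference of -0.94 on the log2 scale for progenitors minus mature mast cells and 0.78 for mature mast cells minus innate lymphoid cells, both short of 2-fold. On these arrays a second probe set often fell short of 2-fold or of the array median. It was counted only where it passed both, so smaller differences of the same sign were not counted. Among 99 genes with several probe sets that differed at least 2-fold between the mast cell populations, a second probe set passed in the same direction in 20 (20.2%). Between mature mast cells and innate lymphoid cells it did so in 19 of 90 (21.1%).

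Probe set numbers on this platform run along chromosomes and strands, which places the Myb probe sets differently. For each, 30 neighbours in number were taken equally from below and above, among single-gene probe sets whose gene is in the RefSeq promoter table. Of the 30 neighbours of 17239664, 30 name genes on the minus strand of chromosome 10, the strand that carries Myb. Of the 30 neighbours of 17231999, 30 name genes on the plus strand of that chromosome. The strand that its probes read was not tested. This comparison was chosen after the values were seen.

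The Myb promoter is shown because Myb is the gene of the set whose level differed. For this and the other promoters, the 250 bases before the annotated start are those of RefSeq on GRCm38.p6, whose table holds 13 start sites for 8 of the 10 genes. Spi1 and Lmo2 have no entry in it. These windows were searched on both strands for 11 motifs by their letters. The 4 GATA hexamers were AGATAA as well as TGATAA, and the forms of each that end in G, AGATAG as well as TGATAG. The motif CANNTG was taken for E-box factors such as TAL1. MITF was given CACGTG as well as CACATG, which are also E-boxes. PU.1 was given GAGGAA, and RUNX factors TGTGGT. MYB was given CAACTG, again an E-box, as well as CAACGG. In the sequences, capitals mark a GATA hexamer on either strand.
Myb, chr10:21160985-21161234, strand -: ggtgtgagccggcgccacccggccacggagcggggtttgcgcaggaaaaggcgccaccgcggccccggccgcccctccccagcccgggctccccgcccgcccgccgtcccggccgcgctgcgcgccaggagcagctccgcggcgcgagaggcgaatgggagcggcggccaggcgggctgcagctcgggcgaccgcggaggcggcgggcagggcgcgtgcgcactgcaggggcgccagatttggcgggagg
The Myb window is 81.2% G and C and holds none of the 11 motifs, as do 5 of the 13 windows and 16.8% of the 32851 windows in the table.

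GATA1 and GATA2 are zinc finger factors that bind the same core letters, and GATA2 acts in progenitors and mast cells. The log2 level of Gata2 was 7.59 in progenitors, 7.59 in the mature cells and 7.50 in the innate lymphoid cells. Progenitors and mature mast cells had exactly the same value, and the innate lymphoid array was lower by 0.09, which is 1.07-fold. Gata1, known for its role in red cells, platelets, eosinophils and mast cells, was at 6.43 in progenitors, 6.54 in the mature cells and 6.43 in the innate lymphoid cells. Here progenitors and innate lymphoid cells were tied, and mature mast cells stood 0.11 apart. With no second array of any population, neither gap can be set against a spread.

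Tal1 and Lmo2, which encode a DNA-binding helix-loop-helix factor and its LIM-only bridging partner, did not vary. Tal1 was at 6.75 on each of the 3 arrays. Lmo2 was at 6.74 on each of them. Mitf, a helix-loop-helix leucine zipper factor of mast cells and pigment cells, was at 6.69 throughout. These 3 genes had identical values to the last deposited digit, as did 10626 of all genes (47.9%). A tie arises where the summary of a probe set gives the arrays the same value, and it does not show that transcript amounts were equal.

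Mitf and Tal1 have several start sites in RefSeq, 3 and 2, but a single probe set each, so use of one start site or another cannot be read from these arrays. Their windows with a GATA hexamer are shown as promoters of genes whose level did not differ between the arrays.
Tal1, start site 1, chr4:115056176-115056425, strand +: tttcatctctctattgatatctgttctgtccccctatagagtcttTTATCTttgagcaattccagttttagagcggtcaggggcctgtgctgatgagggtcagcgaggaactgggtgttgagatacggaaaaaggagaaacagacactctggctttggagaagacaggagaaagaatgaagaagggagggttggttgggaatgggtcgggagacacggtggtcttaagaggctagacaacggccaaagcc
Mitf, start site 2, chr6:97929567-97929816, strand +: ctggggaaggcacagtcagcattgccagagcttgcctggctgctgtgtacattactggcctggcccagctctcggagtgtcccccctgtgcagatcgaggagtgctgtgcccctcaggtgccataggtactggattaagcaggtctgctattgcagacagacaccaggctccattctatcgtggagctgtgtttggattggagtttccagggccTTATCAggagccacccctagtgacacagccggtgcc
Mitf, start site 3, chr6:97991533-97991782, strand +: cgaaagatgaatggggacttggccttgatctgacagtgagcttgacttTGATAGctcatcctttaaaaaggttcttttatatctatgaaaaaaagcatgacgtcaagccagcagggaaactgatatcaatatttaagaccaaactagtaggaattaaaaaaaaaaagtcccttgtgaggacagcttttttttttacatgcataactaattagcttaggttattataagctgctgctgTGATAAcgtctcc
In the Tal1 window the hexamer lies 205 bases before the start, read from the opposite strand. In the second Mitf window it lies 36 bases before the start, also on the opposite strand. The window of the third Mitf start site, 36% G and C, holds 2 such hexamers, 202 and 13 bases before the start, both on the gene's strand. A GATA hexamer was found in 4 of the 13 windows (30.8%), against 26.5% of all windows in the table. These are matches of letters and say nothing about binding.

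Spi1 and Cebpa stand for the wider myeloid programme. Spi1, whose product PU.1 is an ETS factor of myeloid and mast cells, was at 7.06 in progenitors, 6.95 in the mature cells and 7.06 in the innate lymphoid cells. The mature array was the low one, by 0.11, and the other arrays were tied. Cebpa, which encodes a leucine zipper factor of granulocyte and monocyte precursors, was at 6.15 in progenitors and 6.13 in the other populations. It lay below the median of all 3 arrays, and the sign of its 0.02 gap between the mast cell populations turned when the arrays were shifted to one median or quantile normalized.

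Runx1 and Cd34 were flat as well. Runx1, which encodes the DNA-binding subunit of core binding factor, was at 6.07 on each array to 2 decimals and below all 3 array medians. Cd34 was at 7.85 in progenitors, 7.82 in the mature cells and 7.82 in the innate lymphoid cells by its own probe set. The progenitor array was the high one by 0.03. A second probe set names Cd34 together with Gm16897, a long non-coding RNA gene, and its signal cannot be divided between them. It was at 5.62 in progenitors, 5.58 in the mature cells and 5.62 in the innate lymphoid cells. The Cd34 promoter is the remaining window with a GATA hexamer.
Cd34, chr1:194938571-194938820, strand +: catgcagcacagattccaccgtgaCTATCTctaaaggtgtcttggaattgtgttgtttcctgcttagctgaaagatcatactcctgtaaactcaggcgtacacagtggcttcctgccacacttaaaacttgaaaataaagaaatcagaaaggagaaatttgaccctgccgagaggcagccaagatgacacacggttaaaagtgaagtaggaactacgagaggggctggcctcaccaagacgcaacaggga
The hexamer lies 226 bases before the start, on the opposite strand.

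The 10 genes share a range of levels in which most genes on these arrays vary little. By mean level over the arrays, 6 lie between 6 and 7 and 4 between 7 and 8, and only Myb rose above 8, on 1 array. Between 6 and 7, 52.1% of 9961 genes were tied on all 3 arrays and 2.35% spanned at least 2-fold. Between 7 and 8 the shares were 40.2% and 8.28% of 3659 genes. Above 9, 2.62% of 229 genes were tied and 50.2% spanned at least 2-fold. Of all genes, 66% spanned no more than the 0.11 of the 9 flat genes, and the median span was 0.01. Levels under the detection limit are not marked in the deposited table, so whether the flat genes were expressed could not be decided from their levels.

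**Figure D2:**
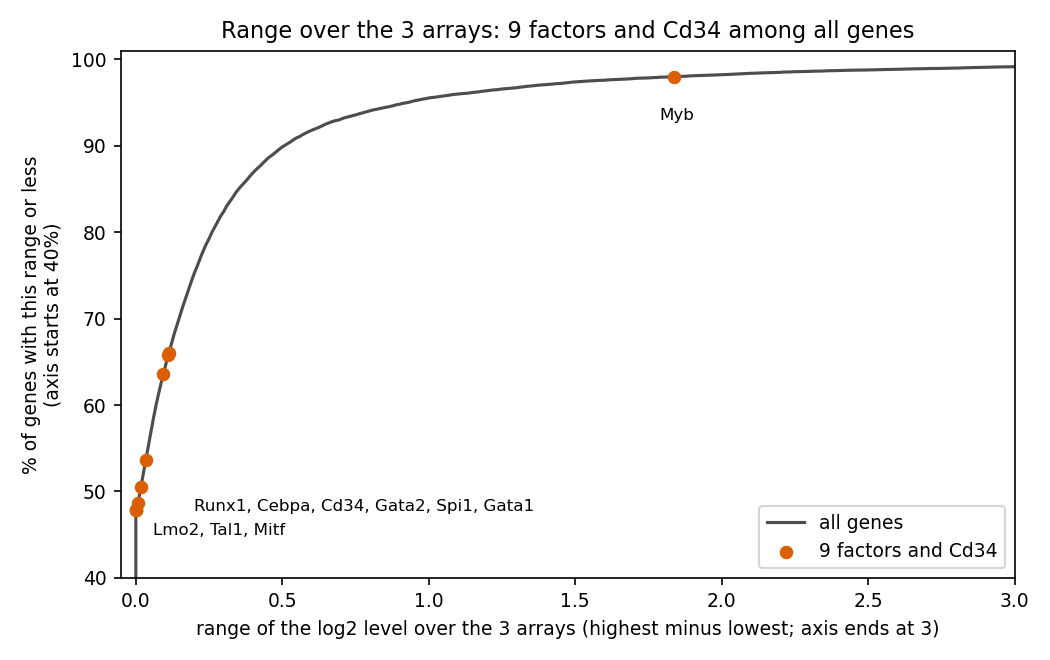
Cumulative share of 22180 genes (vertical axis, from 40%) against the range of the log2 level over the 3 arrays (horizontal axis, up to 3), with the 9 factors and Cd34 as orange points on the curve. The curve starts at 47.9%, the genes tied on all arrays, where Lmo2, Tal1 and Mitf lie; 6 genes follow at ranges up to 0.11, and Myb lies at 1.84, a range reached by 2.01% of genes.

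**Figure D3:**
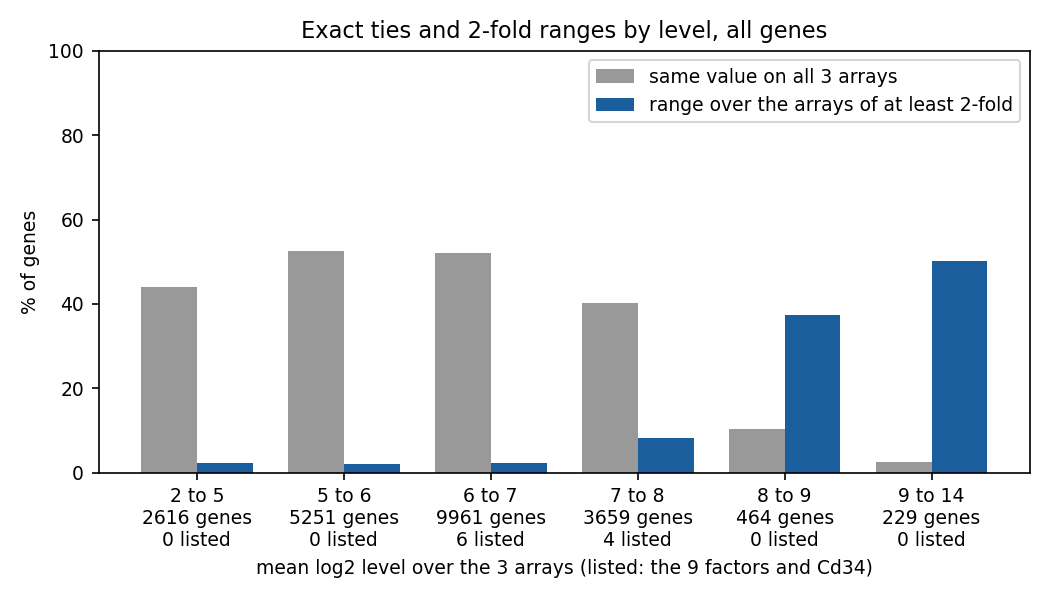
Share of genes with the same value on all 3 arrays (grey bars) and with a range of at least 2-fold over the arrays (blue bars), by mean log2 level; the labels give the genes in each bin and how many of the 9 factors and Cd34 it holds. Ties fall from 52.1% at levels of 6 to 7 to 2.62% above 9, while 2-fold ranges grow from 2.35% to 50.2%.

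Among partners and relatives of the factors, Cbfb alone reached 2-fold. Of 17 measured genes of the GATA and TAL1 complex and its partners, none differed at least 2-fold between the mast cell populations, and 7 were tied on all 3 arrays. Cbfb, the partner subunit that RUNX proteins bind, was at 5.81 in progenitors, 5.71 in the mature cells and 6.92 in the innate lymphoid cells. The innate lymphoid array was the high one, with a difference of -1.10 for progenitors minus innate lymphoid cells and -1.20 for mature mast cells minus innate lymphoid cells, and both mast cell levels lay below their array's median. Of 22 measured paralogs of the 10 genes, such as Gata3, Tfe3, Cebpb and Runx3, none reached 2-fold in any comparison and 10 were tied on all arrays. Median differences of both lists were 0 in every comparison, as they were over all genes. Of all genes, 47.9% were tied on all 3 arrays and 2.44% to 2.65% reached 2-fold in a given comparison. A count of 1 gene in a list of this size cannot be set apart from these shares.

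Among 22 measured other transcription factors of mast cells and basophils, Elf1 alone reached 2-fold. Elf1, an ETS family factor, was at 6.49 in progenitors, 9.61 in the mature cells and 6.49 in the innate lymphoid cells. Mature mast cells were the high array, 8.72-fold above progenitors, and the other arrays were tied. It has 1 probe set, so no second reading exists. Of 20 other transcription factors of blood progenitors, among them Meis1, Hoxa9 and Gfi1, none reached 2-fold and 13 (65%) were tied on all arrays. For the lists of this paragraph too, the shares over all genes were 47.9% tied and 2.44% to 2.65% at 2-fold in a given comparison. Of 17 measured surface and granule genes of progenitors, only Kit reached 2-fold between the mast cell populations, with progenitors the lower. Kit and the protease gene Ctsg (8.80 against 7.52) were at least 2-fold higher in mature mast cells than in innate lymphoid cells, and none differed 2-fold between progenitors and innate lymphoid cells.

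Most genes described as targets of GATA2, MITF or PU.1 in mast cells reached 2-fold in some comparison, and 4 of 18, Csf2rb, Gzmb, Tpsab1 and Slc18a2, did not. Of 18 such genes, 11 lay at least 2-fold lower in the progenitors than in the mature cells and none lay higher, with a median difference of -1.47. Over all genes, 1.93% lay at least 2-fold lower in progenitors and 0.509% higher. Against innate lymphoid cells, 4 were at least 2-fold higher in progenitors (0.766% of all genes) and 14 in mature mast cells (1.34% of all genes). The median differences were 0.27 and 2.25, against 0 over all genes and 0 over the 9 factors and Cd34 in each comparison. Kit, the stem cell factor receptor, was at 6.88 in progenitors, 10.29 in the mature cells and 6.63 in the innate lymphoid cells. Ndst2, an enzyme of heparin sulfation, was at 6.81, 10.59 and 6.64 in the same order. Tph1, which makes serotonin's precursor, was at 5.86, 9.57 and 5.59. In these 3 genes, as in Myb, mature mast cells were the high array and the other arrays lay close together. In Cpa3, the mast cell carboxypeptidase, at 12.30, 12.83 and 5.28, progenitors instead lay close to mature mast cells. None of the 18 was tied on all 3 arrays, and 14 spanned at least 2-fold, as 4.46% of all genes did. That share depends on level: it was 37.3% at mean levels of 8 to 9 and 50.2% above 9. The 18 genes were not matched to all genes by level. The list holds all 8 mast cell markers used below to check the labels, and 7 of them are among the 11 lower genes. The counts here and there are therefore not separate results. The list was drawn up with earlier results of these arrays known and includes sort markers, so its contrast with the factors is a description.

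**Figure D4:**
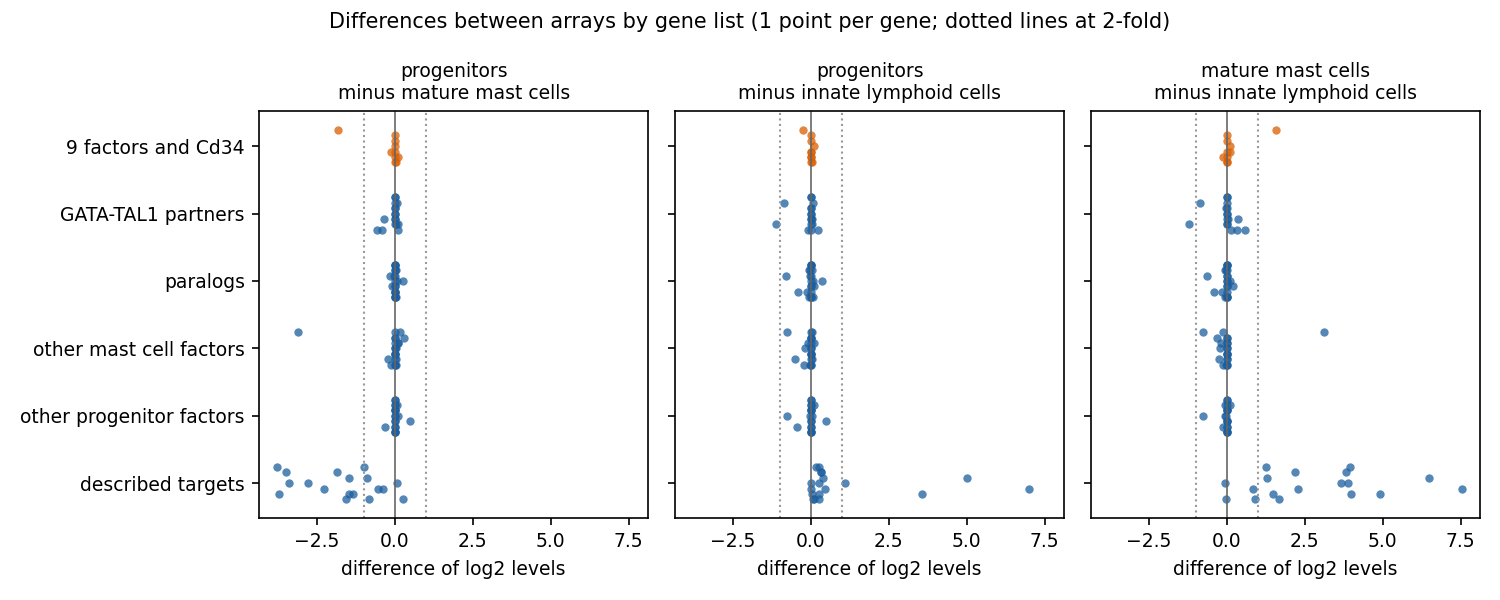
Difference of log2 levels for each gene (points) of the 9 factors and Cd34 (orange) and of 5 other gene lists (blue), in the 3 comparisons; dotted lines mark 2-fold. In the factor lists only Myb, Cbfb and Elf1 lie beyond 2-fold, while 11 of the 18 described targets lie at or beyond the left line in the first panel and 14 at or beyond the right line in the last.

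The genes most like Myb over the 3 arrays were named by the smallest Euclidean distance between levels after each gene's mean was subtracted, among 11833 other genes above the median on their brightest array. They were Sec61b, Mir3083, A230045G11Rik, Rab5if and Gm2022, at distances of 0.10 to 0.16 on the log2 scale. Sec61b, a subunit of the endoplasmic reticulum translocation channel, was at 7.30 in progenitors, 8.99 in the mature cells and 7.47 in the innate lymphoid cells. Rab5if was at 6.76, 8.79 and 7.06 in that order. With 3 points per gene, many patterns are alike.

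The labels were checked against marker genes. All 8 mast cell markers were at least 2-fold higher in mature mast cells than in innate lymphoid cells, as were 1.34% of all genes. In progenitors 4 of the 8 were so, Cpa3, Cma1, Mcpt4 and Tpsb2, against 0.766% of all genes. Kit, Fcer1a, Ms4a2 and Hdc were not, although c-kit and FcεRI were in the gate of the progenitors. All 8 are also in the list of described targets above. Fcer1a, the IgE-binding chain used as protein in the gate, was at 5.37 in progenitors, 8.87 in the mature cells and 5.05 in the innate lymphoid cells. Of 7 measured innate lymphoid markers, Il7r, Arg1 and Klrg1 were at least 2-fold higher in the innate lymphoid cells than in either mast cell population. Over all genes, 1.88% were so against progenitors and 1.26% against mature mast cells. The other 4, Il2ra, Gata3, Rora and Icos, were not. Il7r and Il2ra encode CD127 and CD25 of the gate. Il2ra was at 6.58 in both mast cell populations and 7.25 in innate lymphoid cells. No marker of macrophages (4 measured), B cells (3), T cells (4), NK cells (3), eosinophils (3) or neutrophils (4) differed 2-fold between any arrays. The summed linear levels of the macrophage markers were 422 in progenitors, 383 in the mature cells and 414 in the innate lymphoid cells. The eosinophil markers were tied on all 3 arrays. Over all genes, 2.44% to 2.65% reached 2-fold in a given comparison and 47.9% were tied on all 3 arrays. With so few markers, the counts for these other cell types cannot be set apart from those shares. The part of other cell types in the Myb difference was not tested.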

How the data were processed

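Log2 expression levels of 41345 probe sets on 3 arrays were used as deposited. The submitters' processing notes name RMA as the authors' method, and its software and version are not given in the sources used here. RMA in general normalizes between arrays and summarises probes by median polish. Values lie between 2.23 and 13.7, from which the log2 scale was taken. Precision is limited by the number of arrays.

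Of the probe sets, 23521 name 1 gene in the platform's table. Where a gene had several, the one brightest on average was taken, giving 22180 genes. Differences between arrays were called at 1 (2-fold) or 2 (4-fold) on the log2 scale when the brighter level was above the median of that array's single-gene probe sets (6.32 for progenitors and 6.30 for either other array). The code for the calls was checked on simulated levels without noise, with shifts set past the thresholds. That check does not measure the accuracy of calls on these arrays. RefSeq's table for GRCm38.p6 was used for names, and its promoter table for sequences. No build is given for the arrays.

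The genes and 14 lists were chosen with earlier results of these data known. Genes named beside them are up to 4 of each list with the largest difference past 2-fold in a comparison, and the 5 most like any listed factor that spans 2-fold. List genes named only as examples, and the markers Gata3, Rora, Cma1, Itgb7, Il2ra, Hdc and Icos, were picked with values seen. Some list members are not reported here. Calculations used Python 3.11.15 with pandas 2.3.3.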

Additional observations from a re-analysis of the deposited data

How the results depend on the processing

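The 6 counts of listed genes past 2-fold or 4-fold were recomputed under 7 alternatives, and 40 of the 42 values were the same. Without a floor, with a floor at the 75th percentile, with the arrays shifted to one median or quantile normalized, with the largest difference among a gene's probe sets, and with probe sets of several genes included, Myb remained the 1 gene at 2-fold in the same 2 comparisons. With a gene's probe sets averaged, the count at 2-fold fell to 0 between progenitors and mature mast cells and to 0 between mature mast cells and innate lymphoid cells, since the flat Myb probe set then counts equally. Shifting the arrays to one median moved the differences by at most 0.02, and quantile normalization by at most 0.06, both on the log2 scale, which gave tied genes a sign. No paired analysis was possible because each population has 1 array, and leaving out a replicate was not possible for the same reason. No depth can be given for arrays. All but Myb lie below a log2 level of 8 on every array, and no detection limit is marked.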

Other observations

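The order of probe set numbers against gene strands was examined for all single-gene probe sets with an entry in the promoter table, after the Myb probe sets were seen to disagree. Of these, 16162 (90.1%) had at least 25 of 30 neighbours, taken as for Myb, on their own gene's chromosome and strand. Another 552 (3.08%) had at least 25 on the opposite strand of that chromosome. A range of at least 2-fold over the arrays was found for 3.68% of the first kind and 7.25% of the second, and exact ties on all 3 arrays for 49.3% and 37.9%. The remaining 1232 (6.87%) met neither condition. Of them, 12.3% spanned at least 2-fold, the highest share, and 45% were tied. The flat Myb probe set 17231999 is one of the 552.

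Some factors below 2-fold were highest in the innate lymphoid array and tied on both mast cell arrays. Ets1, an ETS family factor of lymphocytes, was at 6.71 in both mast cell populations and 7.46 in innate lymphoid cells. Kdm1a, a histone demethylase that works with GFI1 factors, was at 6.78 in both and at 7.65. Junb, an AP-1 subunit, was at 7.57 in both and at 8.34. Erg, an ETS factor of stem cells, was instead highest in progenitors, at 6.95, and was at 6.48 in both other populations. These genes were chosen after their values were seen, and no spread is known for them.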
